A study of Mus musculus with 12 samples.

Results

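Tumor pTreg and tumor tTreg were compared across genes in 8 of the 12 libraries of a mouse bulk RNA sequencing series. The members were taken by their labels, 3 libraries of pTreg and 5 of tTreg from Hepa1-6 tumors, and the comparison covers the 15705 genes that passed a low-count filter, of 27279 genes with any count and 55413 in the table. Regulatory T cells (Treg) are CD4 T cells that restrain other immune cells and depend on the transcription factor Foxp3. Thymic Treg (tTreg) acquire Foxp3 during development in the thymus, whereas peripheral Treg (pTreg) acquire it later, from mature conventional CD4 T cells. Some Treg in inflamed tissue also take up parts of a helper T cell program. The best known is the Th1 program, in which the factor T-bet (gene Tbx21) drives the cytokine interferon gamma (gene Ifng) and the chemokine receptors CXCR3 and CXCR6.

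All tumor libraries came from TCRbd-/- hosts, which make no T cells of their own, so every T cell had been transferred. The hosts received tTreg from spleen and lymph nodes of CD45.1 Foxp3YFP-cre mice, together with Foxp3-negative conventional CD4 and with CD8 T cells of CD45.2 donors of the same Foxp3YFP-cre genotype, at 1 to 10 to 8. Tumors were started with Hepa1-6, a hepatoma line of mice, inoculated 3 days after the transfer, and Treg were sorted on day 18 after inoculation from tumor-infiltrating CD4 cells. The remaining 4 libraries, total Treg from lymph nodes of tumor-free mice labelled with the genotypes Foxp3YFP-cre and TCRbd-/-, were not inoculated and serve here only as a reference level. The labels name the groups pTreg and tTreg without giving the sort gate, and nothing in the sources used here gives age, sex or pooling of the mice. They also do not say that libraries came from separate mice, so the spread behind each p-value is that of these libraries and may be technical.

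Depth was even: tumor tTreg libraries held 18.1 to 18.5 M counts, those of tumor pTreg 18.0 to 18.2 M and the lymph node libraries 14.6 to 17.3 M. What differed was the share of T cell transcripts. Cd3d, Cd3e, Cd3g and Cd247, which encode the CD3 signalling chains of the T cell receptor, together gave 4461 to 4707 counts per tumor pTreg library and 353 to 430 per tumor tTreg library, against 18209 to 21787 in lymph node Treg. As CPM (counts-per-million of the library) their sum was 253.2 ± 6.34 (SD, n = 3), 21.6 ± 1.71 (n = 5) and 1247 ± 9.98 (n = 4), an 11.7-fold difference between the tumor groups. All libraries therefore held the genes that define T cells, but both tumor groups held far less of them than the lymph node group did. Markers of macrophages and monocytes summed to 6570 to 6610 CPM in tumor pTreg and 6650 to 6980 in tumor tTreg, against 39.4 to 47.7 in lymph node Treg. Markers of Hepa1-6 cells or hepatocytes summed to 9540 to 9870, 11800 to 12400 and 23.9 to 28.1 CPM. In bulk RNA fewer cells of a type and less RNA per cell cannot be told apart.

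Each gene is therefore given on 2 scales. The whole-library scale is CPM with a fit across all genes (edgeR, TMM factors), and the CD3 scale divides the same counts by the CD3 sum of the library and is printed per 100 CD3 counts. On the whole-library scale 8184 of 15705 genes (52.1%) were called at an adjusted p below 0.05, 4204 higher in tumor pTreg (26.8%) and 3980 lower (25.3%). At least 2-fold differences were fewer, 1031 higher (6.56%) and 222 lower (1.41%), and 189 genes were at least 10-fold higher (1.20%). On the CD3 scale 15366 genes (97.8%) were called, 61 higher (0.388%) and 15305 lower (97.5%), because the median gene, with a log2 fold change of -0.01 on the whole-library scale, stood at -3.57 on the CD3 scale. For a gene that other cells in the sample also make, the value on the CD3 scale is no T cell level. Scaling to Trac, Trbc1 and Trbc2 instead of the CD3 genes raised every value on it, to 132 genes higher, and turned the sign of the smallest negative values. All 61 genes that were higher on the CD3 scale were also higher on the whole-library scale. The shared counts nearly fixed this in advance, because a gene merely level with the CD3 genes is already far higher by CPM. The second call therefore adds no separate support. The other genes higher by CPM divided into 3880 (24.7%) that were lower per CD3 count and 263 (1.67%) that were called in neither direction per CD3 count.

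**Figure D1:**
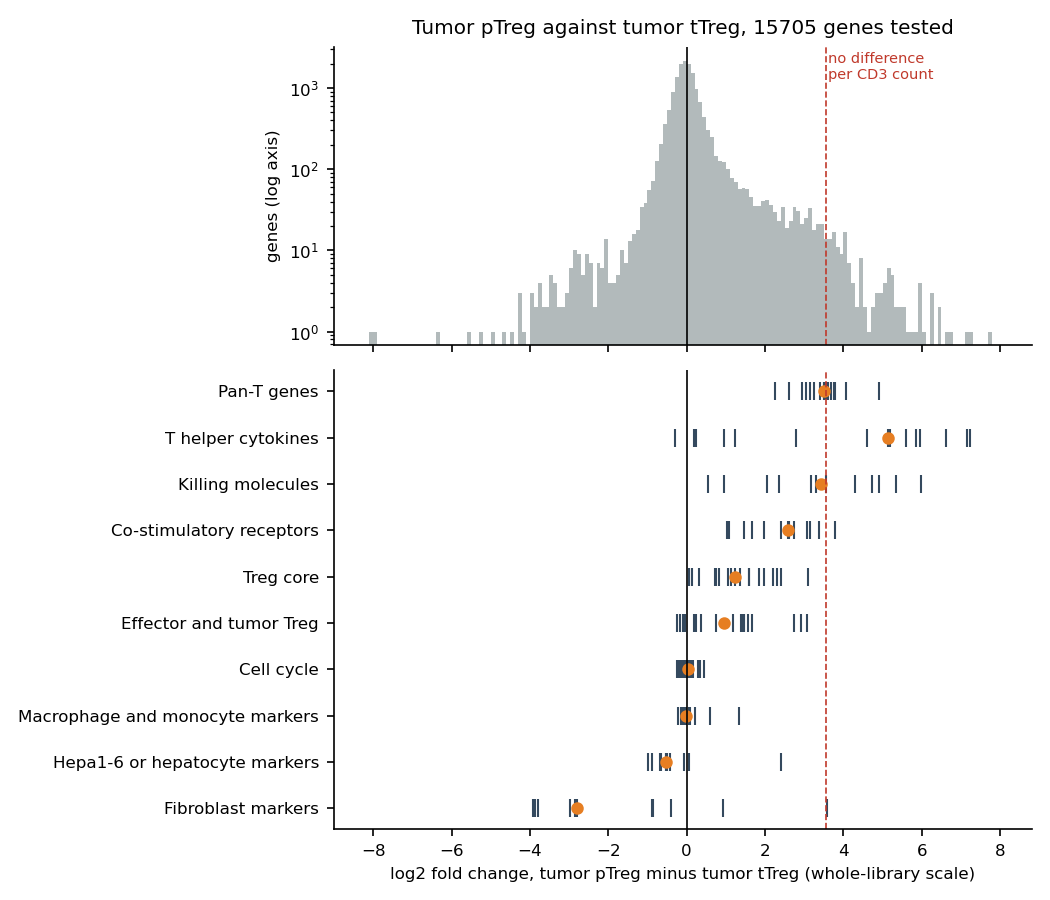
Upper panel: number of genes (log axis) by log2 fold change, tumor pTreg minus tumor tTreg, on the whole-library scale, for the 15705 genes tested. Lower panel: the members of 10 gene lists as ticks with the list median as an orange point. The black line marks no difference by CPM and the red dashed line no difference per CD3 count. The median of pan-T genes (3.51) lies along the dashed line, that of T helper cytokines (5.14) to its right and that of fibroblast markers (-2.80) left of 0. Not all members lie with their median: 6 of 15 cytokines were lower per CD3 count and 2 of 12 fibroblast markers were higher by CPM.

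Among the 61 genes higher on both scales (0.388% of all tested), 27 had at least 10 CPM in tumor pTreg, 10 were T cell receptor segments or constants and 4 were predicted genes or clones. The predicted gene Gm49751 lies within Ifng on the same strand, and Gm20743 spans Xcl1 on the opposite strand. These entries may not be independent of the genes they overlap. The gene lists held 32 of the 61, among them helper cytokines, T-box factors and receptors of the Th1 program, genes of the killing machinery, T cell receptor signalling genes and the chains of the CD8 co-receptor. None of the 19 Treg core genes was among them. Ifng (chromosome 10, 118441046 to 118445892 in GRCm38) read 101, 102 and 104 CPM in the 3 tumor pTreg libraries and 3.01, 3.01, 3.24, 2.90 and 1.88 in the 5 tumor tTreg libraries. Every pTreg library was far above every tTreg library, which held for 24.4% of all genes tested. The log2 fold change was 5.19 by CPM (standard error 0.0711, adjusted p = 2.85e-29) and 1.64 per CD3 count (standard error 0.108, adjusted p = 1.80e-46). Levels per 100 CD3 counts were 40.5 ± 0.585 against 13.0 ± 2.51, and 1.10 ± 0.105 in lymph node Treg. The smaller p per CD3 count, beside a smaller effect and a larger standard error, does not mark stronger evidence.

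Tbx21 (chromosome 11, 97098071 to 97115331), which encodes T-bet, read 33.4, 35.8 and 34.4 CPM in tumor pTreg and 1.31, 1.58, 2.49, 1.75 and 1.77 in tumor tTreg. The groups did not overlap on either scale. Its excess was smaller than that of Ifng, 4.28 by CPM and 0.73 per CD3 count (13.6 ± 0.669 against 8.23 ± 1.72 per 100 CD3 counts, adjusted p = 6.00e-08), and it was no longer called when the test asked for more than a 2-fold difference per CD3 count (adjusted p = 0.879). Cxcr6, the receptor for CXCL16 on tissue T cells, read 58.2, 63.0 and 64.8 CPM against 1.42 to 2.57, with log2 fold changes of 5.02 and 1.47. Eomes, another T-box factor, known from CD8 and NK cells, stood at 15.8 to 17.4 CPM in tumor pTreg and 0.109 to 0.276 in tumor tTreg, with 6.26 and 2.75. Pdcd1, which encodes PD-1, an inhibitory receptor, read 47.4 to 49.8 against 1.86 to 2.49 CPM, with 4.54 and 0.99. Its level per 100 CD3 counts, 19.3 ± 0.962 against 9.77 ± 1.45, was also above the lymph node level of 4.69 ± 0.284.

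**Figure D2:**
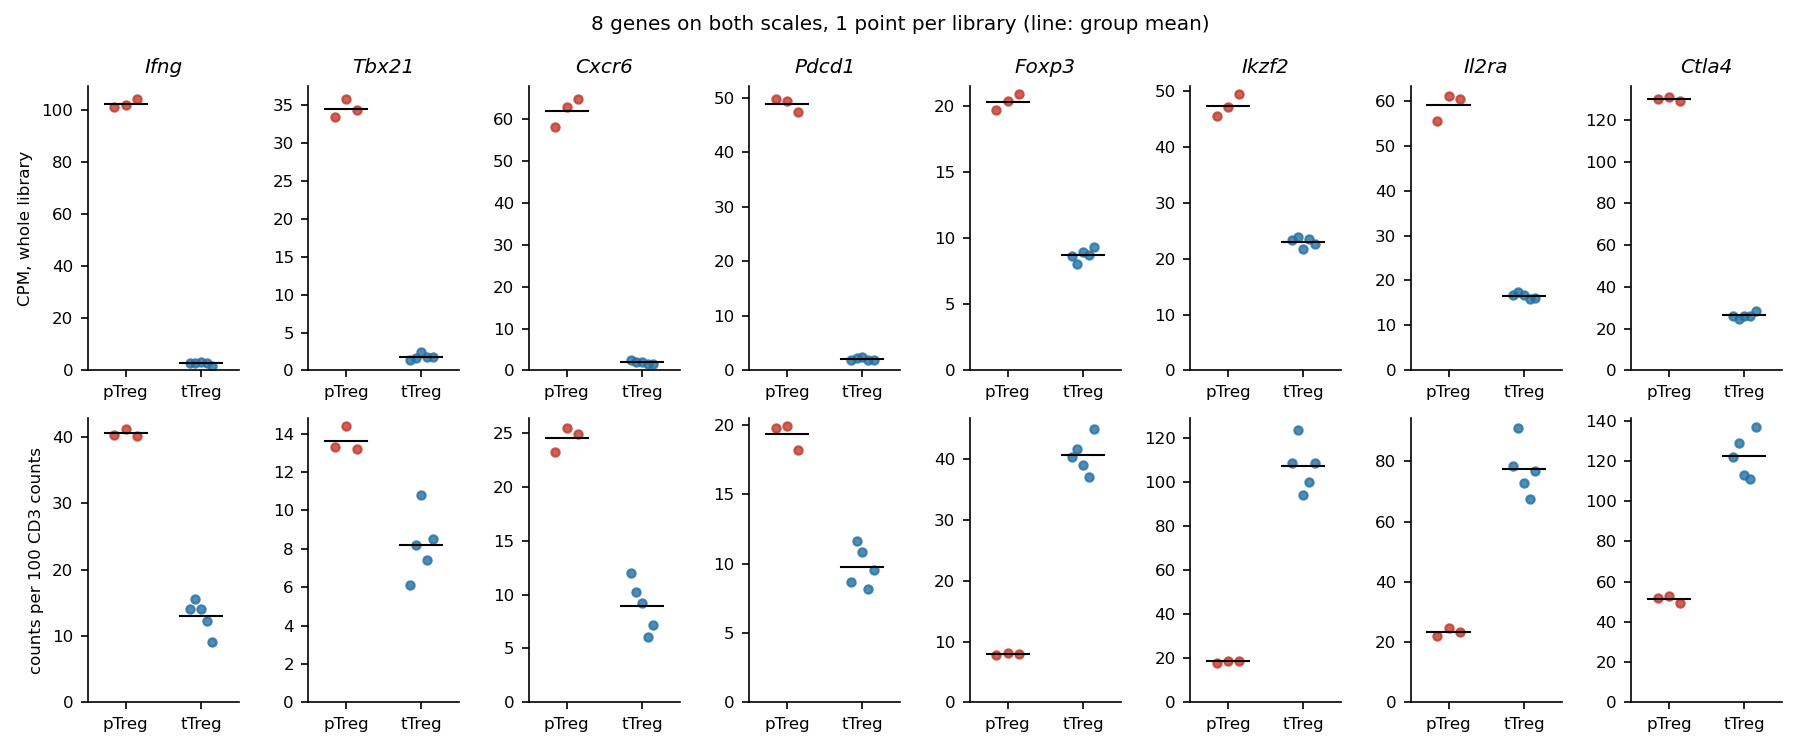
Levels of 8 genes in each tumor library, in CPM of the whole library (upper row) and in counts per 100 CD3 counts (lower row); points are libraries, 3 of tumor pTreg and 5 of tumor tTreg, and lines are group means. Ifng, Tbx21, Cxcr6 and Pdcd1 are higher in tumor pTreg in both rows, while Foxp3, Ikzf2, Il2ra and Ctla4 are higher in the upper row and lower in the lower row.

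Of 20 genes tested from a list for the Th1 program, 18 were higher by CPM and none lower, against 26.8% and 25.3% of all genes. The median log2 fold change was 1.78, against -0.01 over all genes. Per CD3 count 6 were higher (Ifng, Tbx21, Eomes, Cxcr6, Nkg7 and Il12rb2) and 13 lower, against 0.388% and 97.5% of all genes. The list median was -1.79, against -3.57 over all genes. Eomes is also known from CD8 and NK cells (above), and Nkg7 is counted again below among the killing molecules. Il12rb2, the inducible chain of the receptor for IL-12, was named after its values were seen. It read 8.57 to 9.74 CPM in tumor pTreg and 0.383 to 0.702 in tumor tTreg, with 4.09 by CPM and 0.55 per CD3 count (adjusted p = 0.0177, but 0.0541 without pTreg replicate 1 and 0.0642 without tTreg replicate 1). Il18rap, part of the receptor for IL-18, was 3.41 higher by CPM and -0.15 per CD3 count, where it was not called (adjusted p = 0.111, but 0.0214 without tTreg replicate 4) and turned to 0.45 with the receptor constant genes as the scale. Stat4, which relays the IL-12 signal, and Cxcr3 were higher by CPM (3.11 and 2.45) and lower per CD3 count (-0.45 and -1.11), where Stat4 turned to 0.14 with the receptor constant genes as the scale. Id2 (0.41) and Bhlhe40 (0.66), transcriptional regulators with roles beyond T cells, were higher by CPM by less than these.

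The promoters of the genes higher on both scales were searched for the core site bound by T-box factors, the letters GGTGTGA on either strand, because Tbx21 and Eomes were both among these genes. The RefSeq promoter table (GRCm38.p6) holds 46 promoters for 41 of the 61 genes, each with 250 bases before and 50 after a transcript start. The letters were present in 6 of the 46 (13.0%), against 3.44% of 14349 promoters of tested genes and 3.98% of all 32851 promoters. The genes were Gzmk, Nkg7, Xcl1, Rgs8 and the predicted gene Gm20743. A match of this kind describes the letters in the window and shows neither binding nor a cause. The AP-1 site TGANTCA was present in 8.70% of the 46 promoters, against 5.60% of those of tested genes and 7.81% of all promoters. The NFAT core GGAAAA was present in 21.7%, against 21.0% and 23.4%, and the TATA box TATAAA in 19.6%, against 7.85% and 13.6%, so a share above that of tested genes was not limited to the T-box letters. The 250 bases before the start are shown for 3 genes with the T-box letters and for Ifng, whose window holds the TATA box letters and none of the other 3 motifs; capitals mark GGTGTGA. They lie at chr13:113180966-113181215 (minus strand) for Gzmk, chr7:43436888-43437137 (plus strand) for Nkg7, chr1:164935523-164935772 (minus strand) for Xcl1 and chr10:118440796-118441045 (plus strand) for Ifng.
Gzmk: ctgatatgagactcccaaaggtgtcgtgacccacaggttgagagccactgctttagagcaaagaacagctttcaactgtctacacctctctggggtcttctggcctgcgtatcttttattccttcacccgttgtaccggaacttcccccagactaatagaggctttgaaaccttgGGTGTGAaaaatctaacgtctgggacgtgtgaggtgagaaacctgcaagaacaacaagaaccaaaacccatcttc
Nkg7: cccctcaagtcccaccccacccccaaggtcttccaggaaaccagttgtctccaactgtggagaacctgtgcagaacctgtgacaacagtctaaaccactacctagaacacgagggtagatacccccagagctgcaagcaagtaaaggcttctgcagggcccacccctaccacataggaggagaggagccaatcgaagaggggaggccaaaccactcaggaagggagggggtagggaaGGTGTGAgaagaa
Xcl1: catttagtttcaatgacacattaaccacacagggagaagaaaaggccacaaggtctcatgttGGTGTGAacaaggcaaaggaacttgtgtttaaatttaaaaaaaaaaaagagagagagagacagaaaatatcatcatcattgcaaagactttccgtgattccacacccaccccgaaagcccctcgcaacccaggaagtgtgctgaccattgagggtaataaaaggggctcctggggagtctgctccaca
Ifng: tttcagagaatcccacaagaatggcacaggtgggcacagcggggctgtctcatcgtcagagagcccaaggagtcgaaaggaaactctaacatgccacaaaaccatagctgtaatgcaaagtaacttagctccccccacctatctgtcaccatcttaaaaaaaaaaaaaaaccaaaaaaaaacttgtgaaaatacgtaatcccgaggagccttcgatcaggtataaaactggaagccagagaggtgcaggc

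Helper cytokines had the highest median of the gene lists. From the list of 19, Il3, Il4, Il9 and Il17f did not pass the filter. Of the 15 tested, 14 were higher by CPM and 1 lower (26.8% and 25.3% of all genes). The median log2 fold change was 5.14 (4.98 with Il2 at its lower bound). On both scales 9 were higher (0.388% of all genes), with a median per CD3 count of 1.58 (1.42 with Il2 at its bound). Il2, Il5, Il13, Il17a, Il21, Il22 and Csf2 passed the filter only through their level in tumor pTreg. These counts and medians therefore partly follow from the filter. The 9 belong to different helper programs: Ifng to Th1, Il5 and Il13 to Th2, Il17a and Il22 to Th17 and related type 3 cells, Il21 to follicular helper cells, and Il2, Csf2 and Tnfsf11 to activated T cells in general. Il21 read 9.85, 10.5 and 10.5 CPM in tumor pTreg and 0 to 0.276 in tumor tTreg. Il13, a cytokine of type 2 responses, read 7.59, 6.46 and 7.58 CPM in tumor pTreg and 0, 0.109, 0.0540, 0 and 0.0552 in tumor tTreg. Both cytokines were close to 0 in every tTreg library and low in lymph node Treg (0.287 ± 0.0823 and 0.255 ± 0.0623 CPM). Their log2 fold changes were 6.62 and 7.16 by CPM and 3.15 and 3.80 per CD3 count.

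Il22, which acts on epithelial cells, read 5.89, 7.29 and 5.03 CPM in tumor pTreg against 0 to 0.219, with 5.58 by CPM and 2.10 per CD3 count. Il17a read 3.58, 3.73 and 3.37 CPM against 0 to 0.164, with 5.86 and 2.47. Neither overlapped between the groups. Il5, the eosinophil growth factor, had 96 counts over the 3 pTreg libraries and 2 over the 5 tTreg libraries, a ratio per library size of 81.0 (95% interval 21.8 to 678, counting error only) and per CD3 count of 6.91 (1.86 to 57.8). Il2, the T cell growth factor that Foxp3 is known to repress, had 56 counts in tumor pTreg, at 0.825, 1.17 and 1.11 CPM, and none in any tumor tTreg library. With a floor of 3 counts over the tTreg group it was at least 31.5-fold higher by library size and at least 2.69-fold higher per CD3 count; Il2 was named after its values were seen. The calls of Il5 and Il2 per CD3 count were lost in the limma fit of FPKM per CD3 FPKM, with 0.1 added to each FPKM (0.25, adjusted p = 0.276, and 0.24, adjusted p = 0.213). Csf2, encoding GM-CSF, read 9.63 to 11.8 against 0.274 to 0.548 CPM (4.60 and 1.06), and Tnfsf11, encoding RANKL, 77.7 to 79.8 against 1.67 to 2.57 (5.14 and 1.58).

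The other 6 cytokines tested were lower per CD3 count, though Lta not with the receptor constant genes as the scale (-0.16, adjusted p = 0.374). Il10, a suppressive cytokine of Treg and macrophages, read 20.8, 23.5 and 23.4 CPM in tumor pTreg against 17.7 to 21.1 in tumor tTreg, with overlapping groups (0.25 by CPM, adjusted p = 0.0045). Tnf (0.17 by CPM) and Ltb (1.22) were higher by CPM, and so were Lta (2.80) and Areg (0.95), while Csf1, the macrophage growth factor, was lower (-0.31); Lta, Areg and Csf1 were named after their values were seen. Among 6 T cell chemokine genes, Ccl1 (10.4 ± 0.454 against 0.307 ± 0.0853 CPM) and Xcl1 (8.26 ± 0.714 against 0.240 ± 0.126), ligands of CCR8 and XCR1, were higher on both scales, at 1.53 and 1.55 per CD3 count. Over all genes tested 0.388% were higher on both scales. Ccl1 passed the filter only through its level in tumor pTreg, so its call partly follows from the filter. Ccl5 was higher by CPM (3.01) and lower per CD3 count (-0.55; 0.04 with the receptor constant genes as the scale), and Ccl3 was not called by CPM (-0.05, adjusted p = 0.281, but 0.0453 without tTreg replicate 3). Ccl4 and Cxcl10 were lower by CPM (-0.25 and -0.38).

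**Figure D3:**
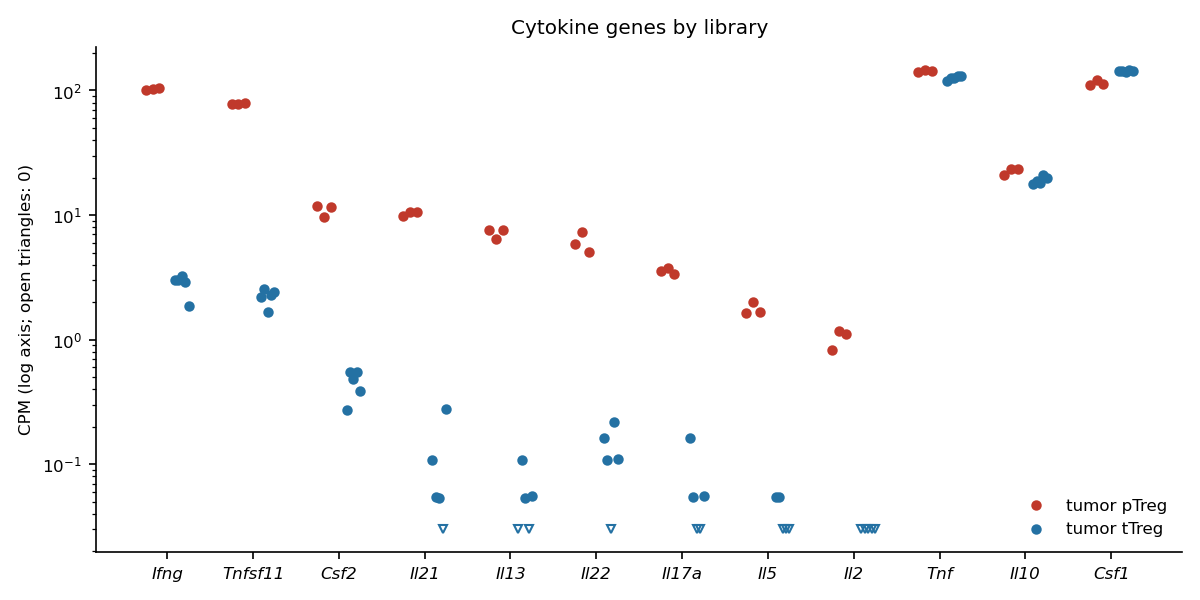
CPM of 12 cytokine genes (log axis) in the 3 tumor pTreg libraries (red) and the 5 tumor tTreg libraries (blue); open triangles mark libraries with 0 counts. From Ifng to Il2 every pTreg library lies above every tTreg library, whereas the groups lie close together for Tnf and Il10 and pTreg lies lower for Csf1.

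All 12 killing molecules tested were higher by CPM (median 3.42), as were 26.8% of all genes. Gzmd, Gzmf and Gzmm, from the list of 15, did not pass the filter. Per CD3 count 4 were higher, 4 lower and 4 called in neither direction (median -0.12), where 0.388% of all genes were higher and 97.5% lower. Gzmk, a granzyme of memory-type effector T cells, read 13.3, 13.2 and 13.9 CPM against 0.110 to 0.274, with 5.98 by CPM and 2.46 per CD3 count. Fasl, which triggers death through the receptor Fas, read 20.1, 20.8 and 19.7 CPM against 0.331 to 0.712, with 5.35 and 1.81. Nkg7, a granule membrane protein, read 70.4 to 74.8 against 2.52 to 2.96 CPM (4.72 and 1.17). All 3 genes were thus separated between the groups in every library, which by CPM, with tumor pTreg above, held for 24.4% of all genes tested. Gzmk passed the filter only through its level in tumor pTreg, so its part in these counts partly follows from the filter. Prf1, the pore-forming perforin, stood at 5.51 to 6.55 against 0.164 to 0.493 CPM, but per CD3 count its groups overlapped (0.76, adjusted p = 0.00796; 0.12 and 0.581 in the fit of FPKM per CD3 FPKM); it was named after its values were seen. Gzmb went the other way per CD3 count, 53.7 ± 0.900 against 10.6 ± 0.532 CPM but 21.2 ± 0.852 against 49.4 ± 3.53 per 100 CD3 counts (2.34 and -1.22). Of 12 NK-type receptor genes 2 were higher on both scales, Klrc1 and Klrc2, which encode chains of NKG2 receptors, and 7 were lower per CD3 count. Klrc1 and Klrc2 stood at 2.54 and 1.84 per CD3 count, Klrc2 turning to -0.92 in the fit of FPKM values. Both passed the filter only through their level in tumor pTreg, so this count partly follows from the filter.

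Genes of CD8 T cells, and of NK and gamma delta T cells in part, moved with these results. Cd8a read 24.0, 24.3 and 22.5 CPM in tumor pTreg and 0.438 to 0.931 in tumor tTreg, and Cd8b1 read 9.85, 9.63 and 8.19 against 0.270 to 0.657. Both CD8 markers, 2 of 2, were thus higher by CPM (5.14 and 4.38) and per CD3 count (1.59 and 0.85), and their sum ranged from 30.7 to 33.9 CPM in tumor pTreg, 0.939 to 1.26 in tumor tTreg and 18.3 to 23.0 in lymph node Treg. Cd8a counts per Cd3e count were 0.399 ± 0.00511, 0.144 ± 0.0371 and 0.0242 ± 0.00337 in these groups. Of 4 NK markers tested from a list of 8, 2 were higher by CPM (Eomes and Gzma) and 1 lower (Khdc1a); their summed level was 128 to 135 CPM in tumor pTreg and 161 to 175 in tumor tTreg, and Ncr1, which defines NK cells, was at 0 in tumor pTreg. Of 7 gamma delta and invariant T cell genes 5 were higher by CPM and 2 lower, against 26.8% and 25.3% of all genes. Trgc1 and Trgc2, constant genes of the gamma chain, were higher on both scales. Trgc2 had 159 counts against 3, a ratio per CD3 count of 7.62 (95% interval 2.56 to 37.4), and the summed level of the list was 72.1 to 74.9 against 67.9 to 72.2 CPM. The part of these cell types in the cytokine, T-box and killing gene differences was not tested.

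**Figure D4:**
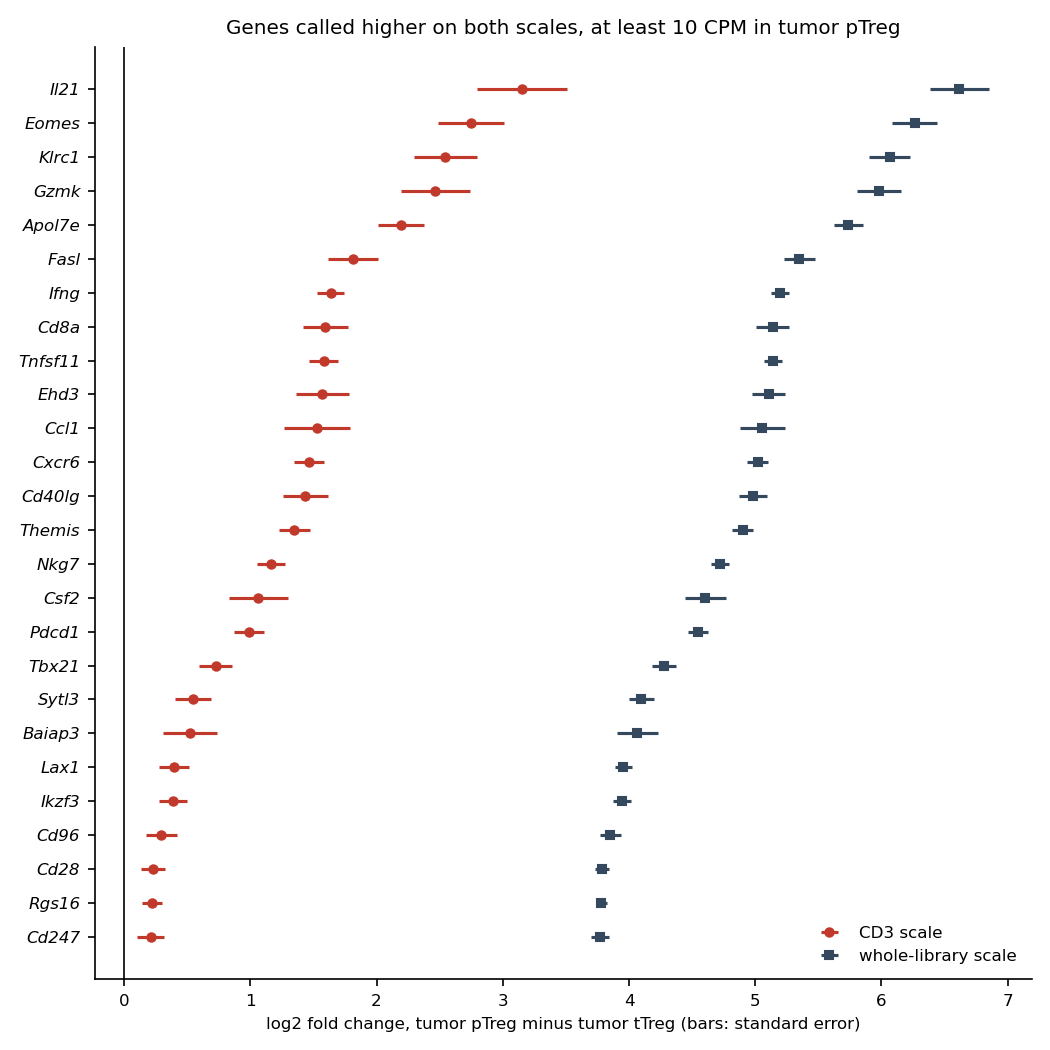
Log2 fold change, tumor pTreg minus tumor tTreg, of 26 of the 27 genes higher on both scales with at least 10 CPM in tumor pTreg, on the CD3 scale (red circles) and the whole-library scale (dark squares), with standard errors as bars. The CD3-scale values run from 0.21 (Cd247) to 3.15 (Il21), and Eomes, Klrc1 and Gzmk follow Il21.

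The T cell receptor machinery set the level against which these genes stood out. All 10 genes of the receptor complex, all 20 proximal signalling genes and all 18 pan-T genes were higher by CPM, as were 26.8% of all genes. Their medians were 3.55, 3.28 and 3.51 by CPM and -0.01, -0.28 and -0.05 per CD3 count. The 4 CD3 genes were not in a constant ratio across the groups: per CD3 count Cd247 was higher (0.21), a call lost without any 1 of 6 of the 8 libraries, and Cd3d lower (-0.41; 0.18 with the receptor constant genes as the scale), while Cd3e (0.12, adjusted p = 0.248) and Cd3g (0.05, adjusted p = 0.586) were not called. Lck, the first kinase of the pathway, was at -0.04 per CD3 count (adjusted p = 0.656) and Lat, the membrane adaptor, was level (adjusted p = 0.98); per pan-T count they read 0.14 and 0.17, and with the receptor constant genes as the scale 0.56 and 0.59. Themis, a signalling regulator with a role in thymic selection, was higher still, at 52.1, 57.4 and 57.0 CPM against 1.31 to 2.30, with 4.90 by CPM and 1.35 per CD3 count. It was above the tTreg level per CD3 count in every pTreg library. Cd28, the main co-stimulatory receptor, and Cd96 were slightly higher per CD3 count (0.23 and 0.30), with overlapping groups and adjusted p of 0.0748 and 0.119 without pTreg replicate 2.

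Counts of receptor constant and variable genes differed in part as well. Trbc1 and Trbc2, the constant genes of the beta chain, stood at 0.604 ± 0.0299 Trbc1 counts per Trbc2 count in tumor pTreg, 1.44 ± 0.0384 in tumor tTreg and 0.519 ± 0.0211 in lymph node Treg. The tumor groups did not overlap (exact two-sided permutation test, p = 0.0357, the smallest that 3 against 5 libraries allow; adjusted p = 0.0387 over 13 ratios chosen after values were seen). These genes are near-identical, and expected counts of RSEM divide reads that match both by an estimate, so the split between them is uncertain. Variable segments of the alpha and beta chains were detected in 88 to 102 genes per tumor pTreg library and 36 to 45 per tumor tTreg library, against 121 to 127 in lymph node Treg. The counts behind them were 869 to 925, 66 to 87 and 4712 to 6184 per library, so the number detected followed very different depths. Per 100 CD3 counts the summed segments overlapped between the tumor groups, at 18.5 to 20.7 and 15.4 to 23.5. Per 100 counts of Trac, Trbc1 and Trbc2 they did not overlap, at 24.8 to 25.8 in tumor pTreg and 13.4 to 19.4 in tumor tTreg. Segments of the gamma chain had 49 counts over the 3 pTreg libraries and 1 over the 5 tTreg libraries. Those of the delta chain went the other way, with 3 counts over the pTreg libraries and 10 over the tTreg libraries.

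Treg genes were higher in tumor pTreg by CPM, as most cytokine genes were, but lower per CD3 count. Foxp3 (chromosome X, 7573644 to 7595245) read 19.7, 20.4 and 20.9 CPM in tumor pTreg and 8.65, 8.03, 8.97, 8.71 and 9.33 in tumor tTreg. Every pTreg library was above every tTreg library by CPM (1.23, standard error 0.0612, adjusted p = 3.87e-16). Per 100 CD3 counts the order turned, with 8.04 ± 0.168 in tumor pTreg, 40.6 ± 2.98 in tumor tTreg and 35.3 ± 0.854 in lymph node Treg (-2.33, standard error 0.102, adjusted p = 4.58e-93). Ikzf2 (chromosome 1, 69531214 to 69687245), which encodes Helios, a factor commonly used to mark thymic Treg, read 45.5, 47.1 and 49.5 CPM against 21.7 to 23.8. It too was above tumor tTreg by CPM (1.05) and lower per CD3 count (-2.52), at 18.7 ± 0.504 against 107 ± 11.1 per 100 CD3 counts and 65.5 ± 2.29 in lymph node Treg. Per CD3 count the mean of both genes was above the lymph node mean in tumor tTreg and below it in tumor pTreg. The difference of Ikzf2 by CPM was not called against a 2-fold threshold (adjusted p = 0.818).

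Of the 19 Treg core genes 16 were higher by CPM and none lower (median 1.23), against 26.8% and 25.3% of all genes. All 19 were lower per CD3 count (median -2.33), where 97.5% of all genes were lower. Il2ra, which encodes CD25 and gives the IL-2 receptor its high affinity, read 58.9 ± 3.04 against 16.6 ± 0.683 CPM and 23.3 ± 1.24 against 77.3 ± 8.71 per 100 CD3 counts. Ctla4, the inhibitory receptor that Treg use against antigen-presenting cells, read 129 to 131 against 24.8 to 28.5 CPM and 51.4 ± 1.77 against 122 ± 10.8 per 100 CD3 counts. Il2rb, the shared chain of the IL-2 and IL-15 receptors, was the core gene nearest to the CD3 genes, at 3.11 by CPM and -0.45 per CD3 count (0.14 with the receptor constant genes as the scale). At the other end Entpd1, the ectoenzyme CD39, was nearly level by CPM (167 to 172 against 152 to 158, 0.14) and far lower per CD3 count (-3.43), while Nt5e, CD73, stood at 2.20 and -1.36. Markers of macrophages, which also make Entpd1, were 3 of 16 higher by CPM and 4 lower, shares no larger than the 26.8% and 25.3% of all genes. Among them Csf1r read 893 ± 9.43 against 857 ± 19.9 CPM (adjusted p = 0.0601, and 0.0397 without tTreg replicate 3). The part of macrophage RNA in these levels was not tested.

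Of 7 genes linked to thymic Treg origin 3 were higher by CPM (Ikzf2, Nrp1 and Plagl1), 2 lower (Dapl1 and Igfbp4) and 2 not called, with the call of Dapl1 lost without pTreg replicate 2 (adjusted p = 0.164) or tTreg replicate 4 (0.115), and all 7 were lower per CD3 count. Effector and tumor Treg genes were higher by CPM in 15 of 20 cases and lower in 3 (median 0.96), where 26.8% of all genes were higher and 25.3% lower. All 20 were lower per CD3 count, as were 97.5% of all genes. Icos, a co-stimulatory receptor, and Ccr8, found on Treg in tumors, lay closest to the CD3 genes, at 3.08 and 2.74 by CPM and -0.48 and -0.82 per CD3 count (0.11 and -0.22 with the receptor constant genes as the scale). Of 15 antigen-response genes 12 were higher by CPM and 1 lower, and all were lower per CD3 count, which is near the share of all genes. Those higher by CPM included Cd69 (2.22 by CPM) and Irf4 (1.47). Co-stimulatory receptors were higher by CPM in 13 of 13 cases and co-inhibitory receptors in 11 of 14, the other 3 not being called, and per CD3 count 1 and 2 of them were higher. Naive and lymph node homing genes were higher in 11 of 14 cases and lower in 3 by CPM, and none was higher per CD3 count.

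A ratio of 2 genes within a library does not depend on either scale. Ifng counts per Foxp3 count were 5.12, 5.02 and 4.99 in tumor pTreg, and 0.348, 0.374, 0.361, 0.333 and 0.201 in tumor tTreg, with 0.0313 ± 0.00359 in lymph node Treg. Tumor pTreg thus held 15.6 times as many Ifng counts for each Foxp3 count. The same ratio for Cxcr6 was 3.05 ± 0.0833 against 0.220 ± 0.0584, for Pdcd1 2.40 ± 0.128 against 0.241 ± 0.0340 and for Tbx21 1.70 ± 0.0571 against 0.203 ± 0.0456. For Cxcr3 it was 1.15 ± 0.0649 against 0.494 ± 0.0494, a 2.33-fold difference. Among Treg genes Ctla4 stood at 6.40 ± 0.222 against 3.01 ± 0.0745, 2.12-fold, and Il2ra at 2.90 ± 0.0938 against 1.91 ± 0.177. Ikzf2 was lower for each Foxp3 count in tumor pTreg, 2.33 ± 0.0344 against 2.65 ± 0.228, and so was Lrrc32, the TGF-beta carrier GARP, at 0.847 ± 0.0570 against 1.12 ± 0.0911. For each of these 9 ratios the groups did not overlap (exact two-sided permutation test, p = 0.0357, adjusted p = 0.0387, n = 3 and 5), and they were among the 13 ratios chosen after values were seen. Ikzf4, the Ikaros family factor Eos, overlapped between the groups, at 0.530 ± 0.0478 against 0.484 ± 0.0467 per Foxp3 count (exact permutation p = 0.25).

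Among genes lower in tumor pTreg, those of fibroblasts and their matrix came first. Fibroblast markers were lower by CPM in 10 of 12 cases and higher in 2 (median -2.80), the noncollagen matrix list in 19 of 23 with 2 higher (median -1.56), collagens in 12 of 18 with 1 higher (median -0.50) and matrix proteases and their inhibitors in 14 of 17 with 1 higher (median -0.42). Over all genes tested 25.3% were lower and 26.8% higher. Col3a1, the type III collagen of loose connective tissue, read 18.0, 26.2 and 22.7 CPM in tumor pTreg and 336, 327, 281, 295 and 320 in tumor tTreg (-3.80, standard error 0.0713). Dpt, encoding the matrix protein dermatopontin, read 1.60, 0.891 and 0.221 CPM against 12.6 to 14.0 (-3.88), and varied more among the pTreg libraries than Col3a1 did. Loxl1, an enzyme that crosslinks elastin, read 0.220 to 0.334 against 4.21 to 5.80 (-4.23), Mmp3, a matrix protease, 0.332 to 0.440 against 5.24 to 7.01 (-3.92), and Lum, encoding lumican, 0.387 to 0.495 against 6.21 to 7.51 (-3.92). The groups were apart in every library for all 5 genes, as they were, with tumor tTreg above, for 24% of all genes tested. No overlap was also a condition for naming the largest changes, so for genes named that way it adds no support. Abundant matrix genes that macrophages or tumor cells can make differed less, with Thbs1 at -0.56, Fn1 at -0.27 and Sparc at -0.79.

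Markers of vessel walls did not follow the fibroblasts. Of 6 pericyte and muscle markers tested 4 were above tumor tTreg by CPM and 1 lower (median 1.65), and of 10 endothelial markers 5 were higher and 1 lower (median 0.49). Over all genes tested 26.8% were higher and 25.3% lower. Rgs5, a gene of pericytes, read 13.8, 10.1 and 12.9 CPM in tumor pTreg and 1.20, 1.53, 4.32, 3.67 and 3.92 in tumor tTreg (2.07, adjusted p = 5.70e-10). Cdh5, the adhesion protein of endothelial cells, read 6.60, 3.79 and 3.60 against 1.09 to 1.92 (1.58), a call lost in the limma fits of log2 FPKM (0.37, adjusted p = 0.15, with 1 added; 0.79, adjusted p = 0.157, with 0.1 added), and Tie1, an endothelial receptor, 1.50 to 2.20 against 0.273 to 0.602 (2.11). The groups did not overlap for these genes, as they did not, with tumor pTreg above, for 24.4% of all genes tested. The spread among libraries was wide compared with that of T cell genes. Cspg4 (2.06) and Notch3 (1.98) were higher as well, Des (-0.55) and Esam (-0.49) were lower, and Vwf (0.10, adjusted p = 0.642) was not called. Pdgfrb, found on pericytes and fibroblasts, was higher (0.94), whereas Pdgfra, a fibroblast receptor, was lower (0.390 to 0.880 against 3.45 to 4.82 CPM, -2.82). The other fibroblast marker that was higher, Thy1 (3.57), is also a T cell gene, and was level per CD3 count (0.01, adjusted p = 0.897).

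**Figure D5:**
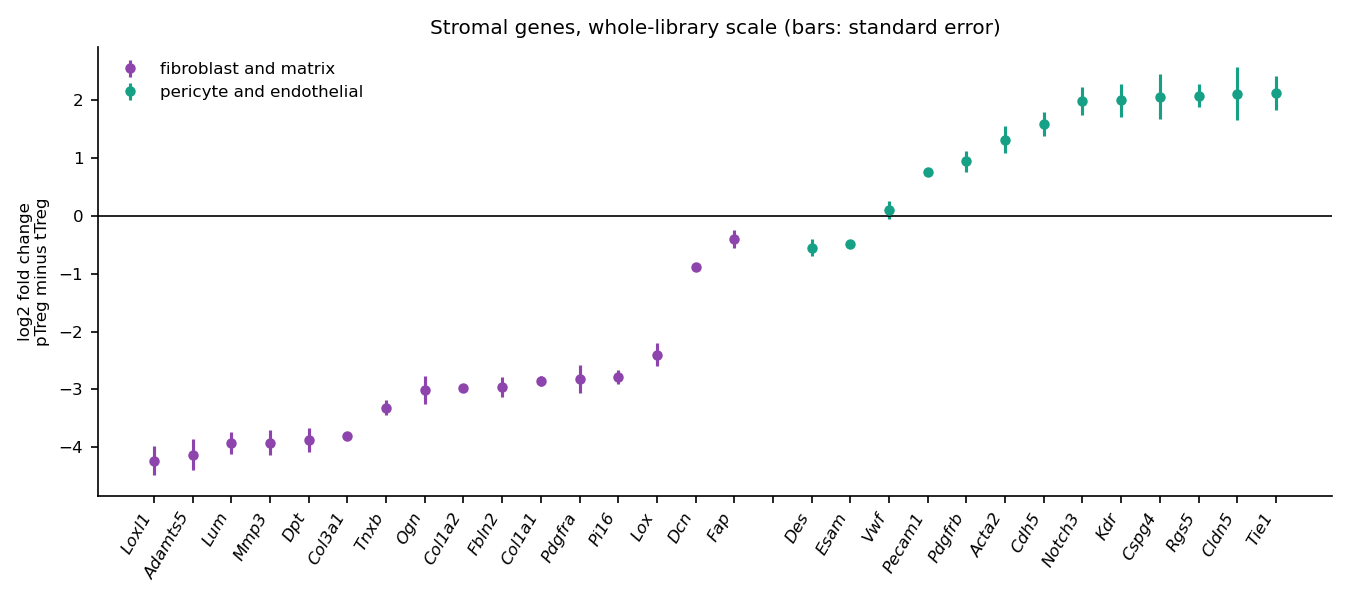
Log2 fold change by CPM, tumor pTreg minus tumor tTreg, of fibroblast and matrix genes (left) and of pericyte and endothelial genes (right), with standard errors as bars. The fibroblast and matrix genes drawn on the left lie below 0, down to -4.23 for Loxl1. They are a selection that leaves out every list member that was higher. Of the higher fibroblast markers Pdgfrb is drawn on the right and Thy1 is not drawn. Also not drawn are 2 higher noncollagen matrix genes (list maximum 1.53), 1 collagen (0.34) and 1 protease or inhibitor (0.40). Most collagens are not drawn, and their list median was -0.50. Most pericyte and endothelial genes lie above 0, with Rgs5 at 2.07 and Tie1 at 2.11.

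Markers of Hepa1-6 cells or hepatocytes were lower in tumor pTreg to a smaller degree, 8 of 11 by CPM with 1 higher (median -0.53). Over all genes tested 25.3% were lower and 26.8% higher. Log2 fold changes in this list ran from -1 to 2.41. Those lower included the serum protein genes Alb (-0.51) and Trf (-0.54) and the keratin gene Krt8 (-0.66). Apoa1, Apoa2, Apob, Ttr and Serpina1a, from the list of 16, did not pass the filter. Macrophage markers had a median of -0.01; Ly6c2, a gene of inflammatory monocytes (7.86 ± 0.526 against 3.14 ± 0.575 CPM, 1.33), and the scavenger receptor genes Cd163 (0.60) and Mrc1 (0.20) were higher, and C1qa (-0.12), C1qc (-0.15) and Cd14 (-0.21) were among the 4 that were lower. Neutrophil, dendritic, B and plasma cell markers had medians between -0.29 and 0.09. Of 8 mast cell and basophil markers 7 were at 0 in tumor pTreg and 1 (Prss34) in tumor tTreg. Their summed level was 2.93 to 4.51 against 4.11 to 6.46 CPM, and the 7 were too low to be tested. The tumor groups held RNA of both sexes, with the X inactivation RNA Xist lower by 0.12 in tumor pTreg and the Y-linked Ddx3y not called (-0.02, adjusted p = 0.749).

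Genes that respond to interferon gamma, the product of Ifng, differed far less than Ifng itself. Of 19 tested 11 were above tumor tTreg by CPM and 5 lower (median 0.22), where 26.8% of all genes were higher and 25.3% lower, and all 19 were lower per CD3 count, as were 97.5% of all genes. Socs1, a feedback inhibitor of cytokine signalling (1.53), and Nlrc5, which turns on MHC class I genes (0.98), were higher, whereas the chemokine gene Cxcl10 (-0.38) and Cd74, the invariant chain of MHC class II (-0.19), were lower. Type I interferon response genes were 3 of 16 higher and 5 lower (median -0.09). Cell cycle genes were near level, 6 of 20 higher and 1 lower (median 0.03), and glycolysis and hypoxia genes were 8 of 19 higher and 2 lower (median 0.08). Macrophage and tumor cell markers were abundant in both groups (above), and their part in these responses was not tested.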

How the data were processed

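RNA of Treg sorted from tumors and lymph nodes was sequenced on a BGISEQ-500, per the labels' protocols. Per the submitters' processing notes reads were handled with STAR 2.7.11a, RSEM 1.3.3 and DESeq2 on GRCm38/mm10; the sources used here do not name the gene annotation. The deposited tables hold RSEM expected counts and FPKM of 55413 genes in 12 libraries. The authors' FPKM values (fragments scaled to gene length and depth, per the submitters' processing notes) were used for alternatives and for ranking abundance only. Gene positions came from the GENCODE vM21 annotation of GRCm38.

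Expected counts were rounded to whole numbers. Genes were filtered with filterByExpr by group (15705 kept) and tested with the edgeR quasi-likelihood F test (R 4.3.3, edgeR 4.0.16), all 12 libraries in 1 fit with group as the only factor, TMM factors, and Benjamini-Hochberg adjustment over all tested genes at 0.05. The CD3 scale used the same fit with the summed counts of the 4 CD3 genes as library size and no other factor. That fit takes the CD3 sum of each library as exact and estimates the spread anew. P-values of the 2 fits should therefore not be ranked against each other. CPM use library totals, and levels are mean ± SD over libraries. Where a group had no count of a gene, folds are lower bounds against 3 counts over the group; with 1 to 3 counts the ratio is given with an exact 95% binomial interval, which covers counting error only. Ratios of 2 genes were tested with exact permutation tests.

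The members, gene lists and scales were chosen with earlier results of these data known. Genes named in the text are 14 genes tied to the study's question, the 20 largest changes in each direction with at least 10 CPM and no overlap, all members of lists of up to 12 genes (of longer lists the 6 with the smallest p and the 3 most abundant), genes higher on both scales with at least 10 CPM, and the CD3 genes; others are said to be named after their values were seen. A few results are not reported here. No set test was run: lists are described by counts and medians beside those of all genes.

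In simulated data 50 genes were changed at each fold, drawn only from more abundant genes, and all others were equal between groups. The whole-library fit recovered 82, 100, 100 and 100% of genes changed 1.25, 1.5, 2 and 4-fold in a set of 15684 genes. Of its calls 8.17% were false, more than the limit of 0.05 aims at. The CD3 fit recovered 40, 70, 92 and 100% in a set of 15670 genes, with 0.658% of calls false. Scarce genes such as Il2 and Il5 were not among those changed. In the real data 52.1% and 97.8% of genes were called, so these rates may not carry over. Alternatives were other scale factors and filters, DESeq2 1.42.0, limma 3.58.1 on counts and on log2 FPKM, the tumor libraries alone, a 2-fold threshold (glmTreat), a replicate block, other scaling genes, and each tumor library left out in turn. Promoter sequences came from the RefSeq table for GRCm38.p6.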

Additional observations from a re-analysis of the deposited data

Results flagged for a closer look

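A library of tumor tTreg was set apart from the other 4 in 8 of the genes named above, its gap to the nearest library taking up more of the group's range than Dixon's 95% limit of 0.71 allows. About 1 in 20 groups does so by chance, and 113 genes were looked at. Ifng was lowest in replicate 5, at 1.88 CPM against 2.90 to 3.24, which still left all 5 far below tumor pTreg. Stat4 was highest in replicate 4, at 5.09 CPM against 3.93 to 4.27, and Ccl4 was too, at 177 against 163 to 167. In replicate 4 Klrc2 was at 0 counts, against 0.0540 to 0.0552 CPM, which is 1 count in each of the others. Replicate 1 was highest for Plagl1 (5.14 against 4.0 to 4.21 CPM) and Thbs1 (3470 against 3270 to 3320). Areg was lowest in replicate 2 (5.85 against 7.23 to 7.77 CPM) and Id2 in replicate 3 (201 against 214 to 218).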

How the results depend on the processing

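Whole-library calls of 4204 genes higher and 3980 lower became 688 and 113 when tested against a 2-fold difference, and ranged from 3772 to 4169 and from 3390 to 3972 with 1 library left out. RLE factors gave 3572 and 4872, and DESeq2 3328 and 4315, so that lower calls outnumbered higher ones with these. Genes higher per CD3 count (61) were 27 with a filter at a mean of 5 CPM, which tests fewer genes, 40 against a 2-fold difference and 132 with Trac, Trbc1 and Trbc2 as the scale, and ranged from 54 to 64 with 1 library left out; on both scales the numbers were 27, 39 and 132, and 54 to 63. Of the 61 genes 11 were called in all 22 alternatives. Ikzf2 by CPM (1.05, adjusted p = 0.818) and Tbx21 per CD3 count (0.73, adjusted p = 0.879) were not called against a 2-fold difference. Left-out libraries moved Ifng between 5.08 and 5.25 by CPM and 1.54 and 1.70 per CD3 count, Tbx21 between 4.18 and 4.43 and 0.64 and 0.85, Foxp3 between 1.20 and 1.25 and -2.37 and -2.30, and Ikzf2 between 1.01 and 1.08 and -2.56 and -2.46. With the receptor constant genes as the scale the sign turned for Ccl5 (0.04), Cd3d (0.18), Icos (0.11), Il18rap (0.45), Il2rb (0.14), Stat4 (0.14), Lat (0.59), Lck (0.56), Trac (0.08) and Trbc2 (0.53), and with pan-T counts for Lat (0.17) and Lck (0.14); in the fit of FPKM per CD3 FPKM it turned for Klrc2 (-0.92) and Rgs8 (-0.57), and the calls of Il2, Il5, Il12rb2, Prf1, Krt17 and Cd3d were lost. With Cd3d left out of the CD3 sum those of Cd247, Cd28, Cd96, Il12rb2 and Rgs16 were lost, and with DESeq2 those of Cd247, Il12rb2 and Klrc2. By CPM the calls of Cdh5, C1qc, Ccl4 and Plagl1 were lost with log2(FPKM + 1) and log2(FPKM + 0.1), and those of C1qa, Cd14, Des, Esam, Fn1, Mrc1, Sparc and Xist with the second. The cause was not tested. A replicate block gave 3932 higher and 3563 lower genes by CPM and 62 higher per CD3 count, of which 56 were among the 61. Deviations from the group means were correlated at -0.113, -0.023 and -0.038 between libraries with the same replicate number, over 8946 genes. For libraries with different numbers the correlations ran from -0.078 to 0.133. So few libraries cannot settle whether the number pairs them. T cell counts in tumor tTreg limit the CD3 scale: it rests on 353 to 430 CD3 counts per library.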

Other observations

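Some genes higher on both scales belonged to none of the gene groups above. Apol7e, an apolipoprotein L family gene, read 28.3, 30.3 and 29.6 CPM in tumor pTreg and 0.378 to 0.828 in tumor tTreg, and per 100 CD3 counts 11.6 ± 0.522 against 2.56 ± 0.886, with 4.25 ± 0.198 in lymph node Treg (2.20 per CD3 count, adjusted p = 1.01e-31). Ehd3, an endocytic trafficking gene, read 15.8, 16.1 and 14.9 CPM against 0.274 to 0.602 (1.57 per CD3 count), and its level per 100 CD3 counts in lymph node Treg, 5.18 ± 0.138, was close to the 6.17 ± 0.407 of tumor pTreg. Rgs16, a regulator of G protein signalling, read 228, 228 and 222 CPM against 14.8 to 17.7, and per 100 CD3 counts 89.4 ± 3.65 against 77.0 ± 9.03 and 9.0 ± 0.372 in lymph node Treg (0.22, adjusted p = 0.00693, but 0.10 and 0.336 with Cd3d left out of the CD3 sum). Both tumor groups thus had far more Rgs16 for each CD3 count than lymph node Treg. Zfp683, which encodes the tissue residency factor Hobit, and the keratin gene Krt17 were named after their values were seen. Both passed the filter only through their level in tumor pTreg. Zfp683 had 159 counts in tumor pTreg and 3 in tumor tTreg, a ratio per CD3 count of 7.62 (95% interval 2.56 to 37.4), and Krt17 had 82 and 0, at least 3.93-fold higher per CD3 count (its call was lost in the fit of FPKM per CD3 FPKM, adjusted p = 0.492).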
